A study of Homo sapiens with 18 samples.

Results

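Immediate early genes are transcribed within minutes of a stimulus from transcription factors that are already present in the cell. EGR1 to EGR4 are zinc finger transcription factors, NR4A1 to NR4A3 are orphan nuclear receptors, IER2 is a nuclear regulator of transcription, IER3 regulates cell survival, and SRF is the factor that binds CArG boxes in the promoters of many of these genes. Growth factors, stress and calcium signals reach them through ERK and p38 kinases, the ETS partners of SRF, and CREB. Here these 10 genes, chosen by name as the immediate early genes outside the AP-1 family, were found by Ensembl identifier among the 22034 genes of the table and followed through all 18 samples. They were listed with earlier results of these data known.

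RNA-seq was done on VCaP cells, an established prostate cancer line that carries the TMPRSS2:ERG fusion and overexpresses the ETS factor ERG. VCaP-shERG cells, which stably carry a doxycycline-inducible hairpin against ERG, received vehicle (shERG DMSO) or doxycycline at 1 µg/mL (shERG Dox). Parental VCaP cells received DMSO or 50 µM PBITE-1, a small molecule described as a ligand of the Pointed domain of ERG, for 4, 8 or 12 h, with 3 samples in every one of the 6 groups. The labels give neither the duration of Dox nor the collection time of the DMSO samples, and Dox in cells without the ERG hairpin was not analysed here.

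The samples held 11308600 to 17483423 counts each. ERG fell from 448 ± 13.7 to 164 ± 4.63 CPM (counts scaled to a common library size; SD, n = 3) with Dox, and from 289 ± 8.85 CPM in DMSO to 180 ± 3.36, 93.8 ± 2.94 and 97.2 ± 7.66 CPM at 4, 8 and 12 h of PBITE-1. All 9 prostate luminal markers listed were detected in every group. Their summed level was 7553 to 7694 CPM in the DMSO samples and 3299 to 3882 CPM at 12 h. It was 10405 to 10640 CPM in shERG DMSO and 6278 to 6520 CPM in shERG Dox. Summed markers of stromal cells were 1.89 to 2.96 CPM in DMSO and 5.31 to 9.28 CPM at 12 h. They were 1.35 to 2.32 CPM in shERG DMSO and 7.52 to 8.86 CPM in shERG Dox. Summed markers of basal, leukocyte and endothelial cells were at most 5.86 CPM in any sample. Of the 4 leukocyte markers, 1 to 3 were at 0 in each group. The part of these shifts in the results below was not tested.

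The sequence before the transcription start is shown for 3 of the genes, since EGR1 and SRF both carry CArG boxes next to the start but differed in the size of their response, and IER2, which responded, has no such match there. Capitals mark the CArG boxes, which are CC and GG flanking 6 bases of A or T, within the 250 bases before each RefSeq start (GRCh38.p14, all on the plus strand). The windows are chr5:138465229-138465478 for EGR1, chr6:43171019-43171268 for the first of 2 SRF starts, and chr19:13150161-13150410 for IER2, and each ends before the first base of its gene in GENCODE release 29.
EGR1: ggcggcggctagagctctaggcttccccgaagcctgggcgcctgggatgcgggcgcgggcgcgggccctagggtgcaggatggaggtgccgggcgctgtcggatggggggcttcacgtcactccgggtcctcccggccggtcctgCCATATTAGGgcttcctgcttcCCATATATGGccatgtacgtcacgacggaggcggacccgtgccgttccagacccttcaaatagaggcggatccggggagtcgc
SRF: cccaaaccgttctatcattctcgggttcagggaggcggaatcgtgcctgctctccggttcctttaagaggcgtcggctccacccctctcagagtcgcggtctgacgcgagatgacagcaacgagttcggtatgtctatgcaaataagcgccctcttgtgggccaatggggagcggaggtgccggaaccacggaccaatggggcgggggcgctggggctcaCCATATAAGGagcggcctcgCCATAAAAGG
IER2: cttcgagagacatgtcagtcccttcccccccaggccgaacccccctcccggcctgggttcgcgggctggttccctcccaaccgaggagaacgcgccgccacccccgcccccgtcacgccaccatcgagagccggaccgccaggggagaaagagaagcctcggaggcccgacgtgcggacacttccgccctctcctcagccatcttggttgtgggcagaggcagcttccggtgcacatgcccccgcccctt

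A window was on hand for 7 of the 10 genes, with 11 starts in all. The EGR1 window held 2 CArG boxes, at -105 to -96 and at -83 to -74 from the start. The SRF window held 2, at -30 to -21 and at -10 to -1. One of the 3 EGR2 starts had 1 box at -71 to -62, and the windows of EGR4, NR4A1, NR4A3 and IER2 had none. The NR4A1 windows end at bases 52022831 and 52037714 of chr12, and any start further along this gene was not searched. Of 35116 windows of the same length over all genes, 1.16% held a CArG box. The half-site of the CREB element, TGACG on either strand, was in 21.2% of all windows and was found in those of EGR1, EGR4, NR4A3, IER2, at 1 start of EGR2 and at 1 start of SRF, with 4 copies before NR4A3. CCGGAA, 1 form of the ETS site, was on either strand in 14.5% of all windows and before IER2 and 1 start each of NR4A1 and SRF. The shorter ETS core GGAA was not searched for. Its reverse complement TTCC stands between the 2 CArG boxes of the EGR1 window printed above. The EGR site GCGTGGGCG, in 0.72% of all windows, was in none of the 11. A match is a run of letters and not a measured binding site.

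**Figure D1:**
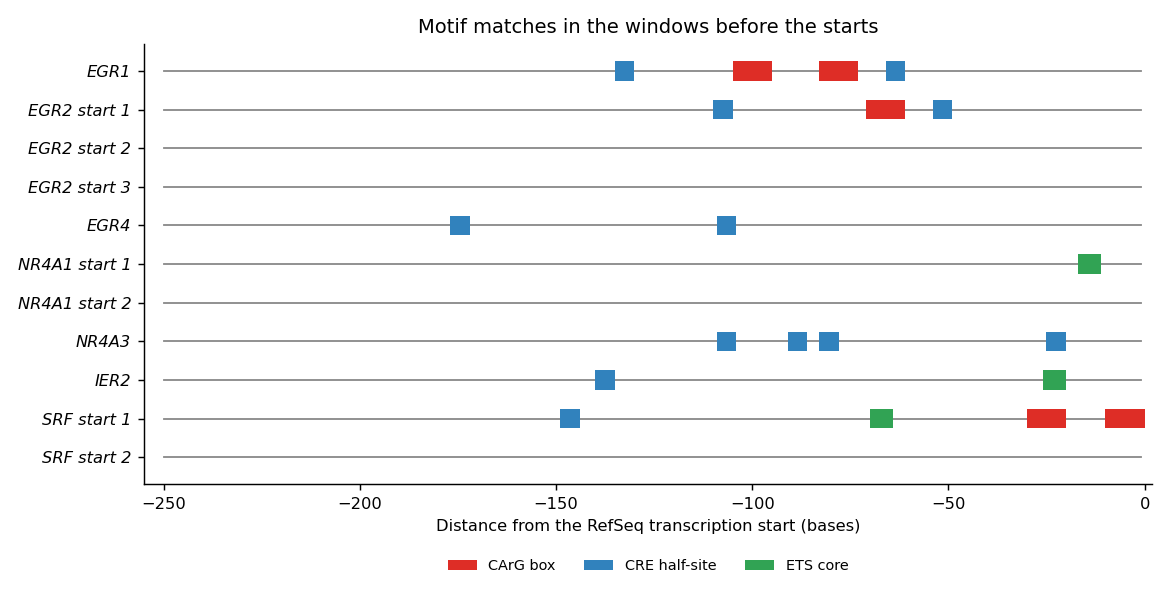
Matches to the CArG box (red), the CREB half-site (blue) and CCGGAA (green, named ETS core in the legend). The windows are the 250 bases before each of the 11 RefSeq starts of 7 genes. The x axis gives the distance from the transcription start in bases. CArG boxes are drawn at EGR1 (2), the first start of EGR2 (1) and the first start of SRF (2).

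Under PBITE-1, EGR1, EGR3, NR4A1, NR4A2, NR4A3, IER2 and IER3 were higher than in DMSO at 4, 8 and 12 h, each in all 3 samples of each time. With Dox, EGR1, NR4A1, NR4A2, NR4A3 and IER2 were not called by the rule given below, and EGR3 and IER3 had too few counts for a fold. EGR1 had 40 to 46 counts per sample in DMSO and 348 to 628 with PBITE-1. A call required an adjusted p below 0.05 together with a log2 fold change beyond 1 in size, by limma-voom with Benjamini-Hochberg adjustment over 14164 tested genes. By that rule 7 of the 8 tested genes of the panel were called higher at 4 h, where 7.28% of all tested genes were called higher. The count was also 7 at 8 h (14.9% of all tested genes) and at 12 h (17.1%). Of these 7, EGR3, NR4A3 and IER3 passed the filter on low counts only because of the PBITE-1 samples. A difference was thus built into their selection. With SRF added, 8 genes passed the adjusted p alone in the higher direction at each time, beside 26.4%, 35.9% and 39.4% of tested genes at 4, 8 and 12 h. All 3 treated samples lay above all 3 DMSO samples in 28.6%, 36.7% and 39.2% of tested genes at these times. The 3 times share the same DMSO samples, so the counts are not independent of each other. Because the genes were listed with earlier results of these data known, the contrast with all tested genes is no independent support.

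EGR2 and EGR4 fell under the filter on low counts and have no test. EGR3, NR4A3 and IER3 passed it only because of the PBITE-1 samples, so that a difference was built into their selection. Among the 5 genes with at least 10 counts in every sample (EGR1, NR4A1, NR4A2, IER2 and SRF), the first 4 were called higher at each time, beside 4.69%, 11.5% and 13.9% of the 11807 genes that met the same minimum at 4, 8 and 12 h.

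**Figure D2:**
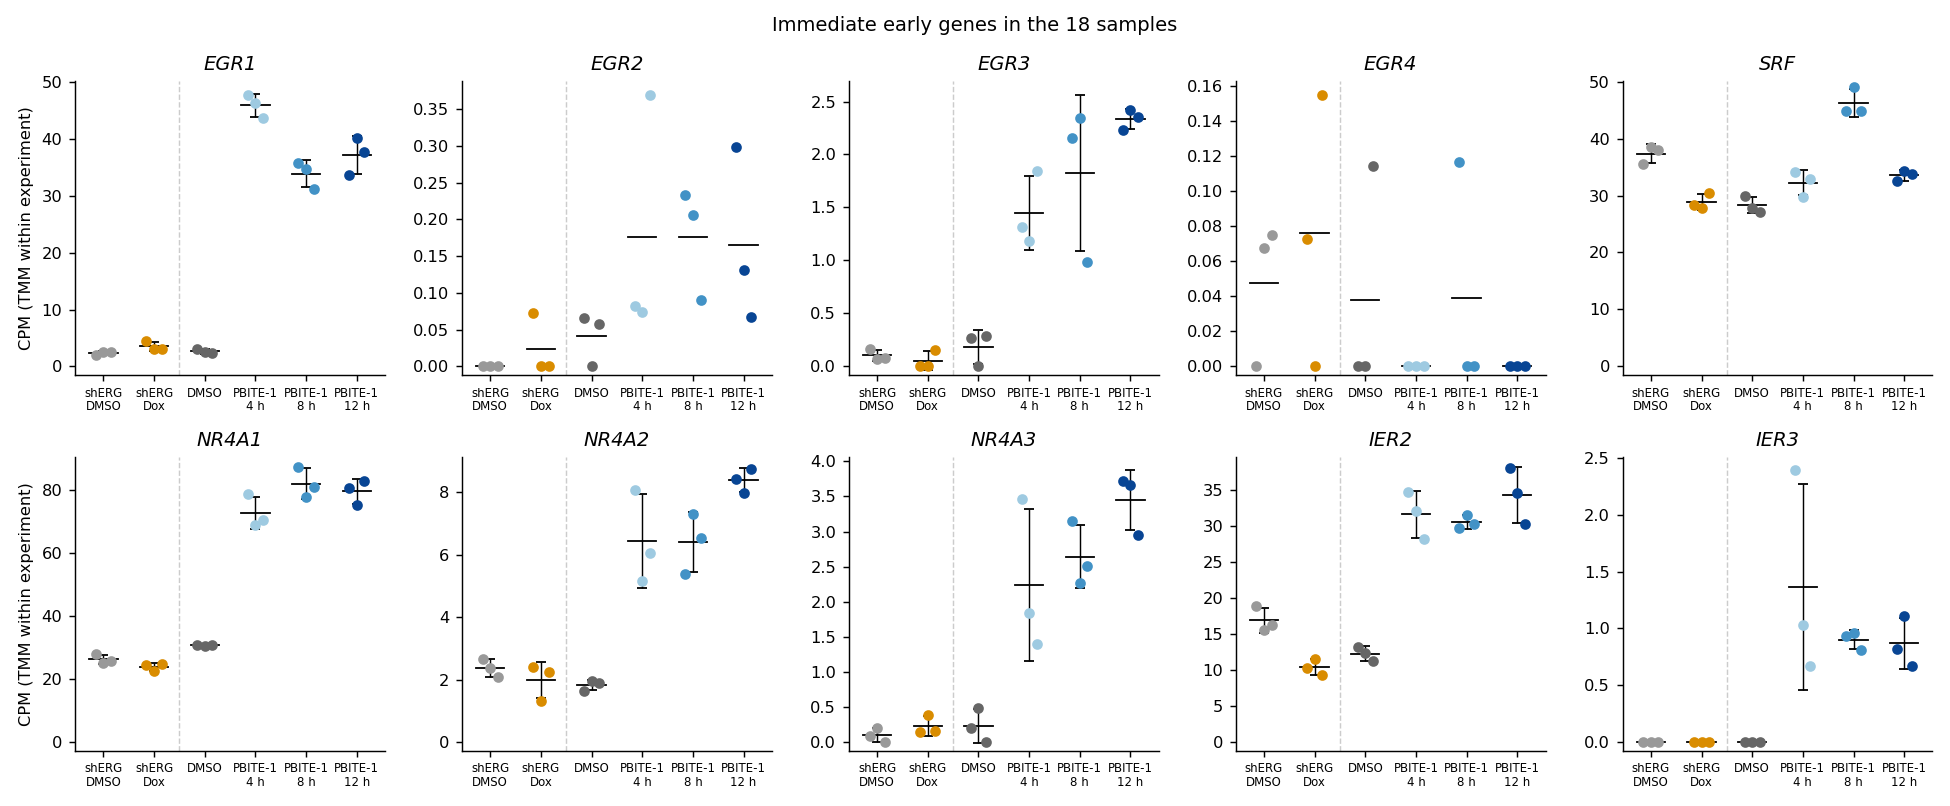
CPM (scaled by TMM within each experiment; y axes differ between panels) of the 10 genes in each of the 18 samples (points), with the group mean (line) and SD (bars, not drawn for EGR2 and EGR4, which have at most 5 counts per sample). In the panels of EGR1, EGR3, NR4A1, NR4A2, NR4A3, IER2 and IER3 every PBITE-1 sample lies above every other sample, and in that of SRF the 8 h samples do.

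EGR1 encodes the zinc finger factor that binds GC-rich sites and is widely used as a readout of immediate early responses (ENSG00000120738, chr5, 138465490 to 138469315, plus strand). Its level was 3.02, 2.56 and 2.28 CPM in the DMSO samples, 47.7, 46.4 and 43.8 CPM at 4 h, 35.7, 34.8 and 31.2 CPM at 8 h, and 33.7, 40.2 and 37.7 CPM at 12 h. The treated samples lay far above the controls, the 4 h samples lay above all later ones, and the 8 h and 12 h samples overlapped. The log2 fold change against DMSO was 4.13 (SE 0.18, adjusted p = 1.25e-21) at 4 h, 3.70 (SE 0.18, adjusted p = 1.28e-20) at 8 h and 3.83 (SE 0.18, adjusted p = 2.09e-21) at 12 h. EGR1 fell by 0.43 (SE 0.07, adjusted p = 5.96e-06) on the log2 scale from 4 to 8 h, and the difference from 8 to 12 h was 0.13 (adjusted p = 0.149).

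The other EGR genes were scarce. EGR3, a close relative of EGR1, had 4, 0 and 5 counts in the DMSO samples, 16, 16 and 25 at 4 h, 37, 34 and 11 at 8 h, and 30, 37 and 35 at 12 h. Every treated sample was above every DMSO sample. The log2 fold changes were 3.37 (SE 0.66, adjusted p = 4.79e-05), 3.70 (SE 0.65, adjusted p = 3.85e-06) and 4.07 (SE 0.64, adjusted p = 4.07e-07) at 4, 8 and 12 h. EGR3 passed the filter only because of the PBITE-1 samples, so a difference was built into these tests. The folds rest on at most 5 counts in a DMSO sample. They were 2.26, 2.60 and 2.96 without DMSO replicate 2, which had 0 counts, and 3.98, 4.31 and 4.68 without DMSO replicate 3, and stayed called. EGR2, known for its role in myelination, had at most 1 count in the 9 samples without PBITE-1 and 1 to 5 counts in the 9 samples with it. EGR4 had at most 2 counts in any sample. Nearly all of these counts are at or under a floor of 3 counts per library, which corresponds to 0.171 to 0.269 CPM.

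NR4A1 (Nur77; ENSG00000123358, chr12, 52022832 to 52059507, plus strand) was the best covered of the nuclear receptors, which bind DNA without a known classical ligand. It stood at 30.7, 30.6 and 30.8 CPM in DMSO, 78.7, 69.0 and 70.7 CPM at 4 h, 87.5, 77.8 and 81.1 CPM at 8 h, and 80.6, 75.4 and 83.0 CPM at 12 h. The groups with PBITE-1 overlapped each other and none overlapped DMSO. Its log2 fold change was 1.24 (SE 0.07, adjusted p = 3.02e-18), 1.42 (SE 0.07, adjusted p = 4.49e-21) and 1.37 (SE 0.07, adjusted p = 7.21e-21) at the 3 times. The step of 0.18 (SE 0.06, adjusted p = 0.00879) from 4 to 8 h passed the test, but not without 4 h replicate 2 (0.14, adjusted p = 0.0725) or without 8 h replicate 1 (0.13, adjusted p = 0.107).

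NR4A2 (Nurr1; ENSG00000153234, chr2, 156324432 to 156342348, minus strand), a receptor known for its role in dopaminergic neurons, was lower throughout. Its level was 1.64, 1.95 and 1.88 CPM in DMSO, 8.08, 5.17 and 6.06 CPM at 4 h, 5.37, 7.30 and 6.55 CPM at 8 h, and 8.41, 7.98 and 8.74 CPM at 12 h. All treated samples were above all controls. The log2 fold change was 1.76 (SE 0.24, adjusted p = 6.82e-08) at 4 h, 1.76 (SE 0.24, adjusted p = 1.98e-08) at 8 h and 2.18 (SE 0.23, adjusted p = 4.62e-11) at 12 h. From 8 to 12 h NR4A2 rose by 0.41 (SE 0.16, adjusted p = 0.0212), and this call was lost without 8 h replicate 1 (0.26, adjusted p = 0.205) or without 12 h replicate 3 (0.38, adjusted p = 0.0634).

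NR4A3 (NOR1; ENSG00000119508, chr9, 99821855 to 99866891, plus strand), the third receptor of the family, was close to absent without PBITE-1. It had 3, 8 and 0 counts in DMSO, 42, 25 and 19 at 4 h, 54, 33 and 28 at 8 h, and 50, 56 and 44 at 12 h. No treated sample overlapped a DMSO sample. NR4A3 passed the filter only because of the PBITE-1 samples, so a difference was built into its tests. The fitted log2 fold changes were 3.83 (SE 0.67, adjusted p = 7.49e-06), 4.21 (SE 0.66, adjusted p = 4.58e-07) and 4.57 (SE 0.65, adjusted p = 5.46e-08). Without DMSO replicate 3, which had 0 counts, the values were 2.58, 2.95 and 3.31, and without DMSO replicate 2 they were 4.74, 5.12 and 5.47, all still called. The levels of the receptors ranged at 12 h from 3.45 ± 0.425 CPM for NR4A3 to 79.7 ± 3.91 CPM for NR4A1 (SD, n = 3).

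IER2 (ENSG00000160888, chr19, 13150415 to 13154908, plus strand) was readily detected without treatment. It measured 13.3, 12.3 and 11.2 CPM in DMSO, 34.7, 32.0 and 28.2 CPM at 4 h, 29.8, 31.6 and 30.3 CPM at 8 h, and 38.0, 34.6 and 30.3 CPM at 12 h. The treated groups overlapped each other and all lay above DMSO. The log2 fold change was 1.36 (SE 0.11, adjusted p = 5.07e-14), 1.32 (SE 0.10, adjusted p = 2.7e-14) and 1.48 (SE 0.10, adjusted p = 3.55e-16) at 4, 8 and 12 h.

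IER3 (ENSG00000137331, chr6, 30743199 to 30744554, minus strand), also known as IEX-1, went from no counts to a few. It had 0 counts in all 9 samples without PBITE-1. With PBITE-1 it had 29, 14 and 9 counts at 4 h, 16, 14 and 9 at 8 h, and 11, 17 and 10 at 12 h. Against a floor of 3 counts per library, which covers counting error only, IER3 was at least 7.42-fold higher at 4 h, 4.90-fold at 8 h and 4.72-fold at 12 h. These bounds were not tested. The fitted log2 fold changes in limma-voom were 5.29, 4.95 and 4.86, with adjusted p-values of 4.15e-06, 6.6e-06 and 7.53e-06. IER3 passed the filter only because of the PBITE-1 samples, so a difference was built into these tests. The bound at 4 h was 4.62-fold without 4 h replicate 1, which had 29 counts. A gene on the opposite strand overlaps each of EGR3, NR4A1, IER2 and IER3 in the annotation, and reads of such partners cannot be told apart here, since the use of strand in counting is not stated.

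SRF (ENSG00000112658, chr6, 43171299 to 43181507, plus strand), the factor shared by CArG box promoters, was abundant and had the smallest log2 fold changes of the 8 tested genes under PBITE-1 against DMSO. It was at 29.9, 27.9 and 27.2 CPM in DMSO, 34.1, 29.8 and 33.0 CPM at 4 h, 44.8, 49.0 and 44.8 CPM at 8 h, and 32.5, 34.3 and 33.7 CPM at 12 h. The 8 h samples stood above all others, the 12 h samples were just above DMSO, and the 4 h samples overlapped it. The log2 fold change was 0.19 (SE 0.08, adjusted p = 0.0381) at 4 h, 0.71 (SE 0.07, adjusted p = 1.33e-11) at 8 h and 0.25 (SE 0.07, adjusted p = 0.00268) at 12 h, all short of the fold threshold. SRF rose by 0.52 (SE 0.07, adjusted p = 9.33e-08) from 4 to 8 h and fell by 0.46 (SE 0.07, adjusted p = 3.93e-07) from 8 to 12 h. The pass at 4 h did not hold in 9 of 17 other settings, in which the adjusted p reached 0.159.

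Between the times, no gene of the panel was called by the full rule in limma-voom, edgeR or DESeq2, and the genes that passed an unadjusted p of 0.05 in limma-voom were 3 from 4 to 8 h and 2 from 8 to 12 h. From 4 to 8 h, 4.43% of tested genes were called higher and 2.22% lower, and at the adjusted p alone NR4A1 and SRF were higher and EGR1 was lower, beside 26.7% of tested genes higher and 26.3% lower. From 8 to 12 h, 3.48% were called higher and 6.59% lower, and at the adjusted p alone NR4A2 was higher and SRF lower, beside 27.8% and 32.5%. Among the 3 times, EGR1 had its highest samples at 4 h and SRF at 8 h, while the 4 h and 12 h samples of NR4A2 overlapped. The adjusted p of IER2 from 8 to 12 h was 0.0979.

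**Figure D3:**
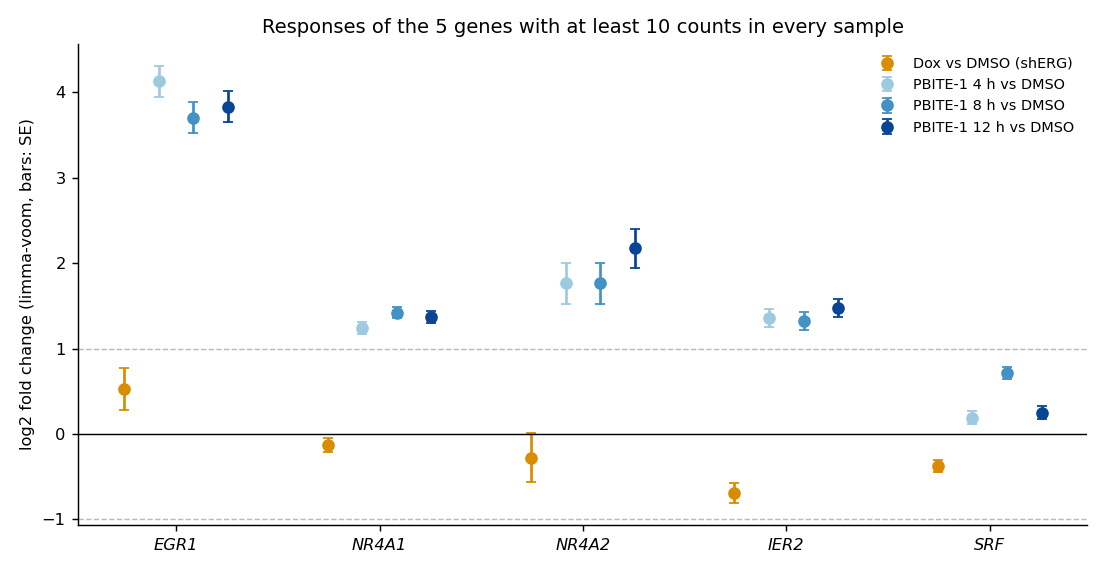
Log2 fold change (y axis, limma-voom; bars, SE) of the 5 genes with at least 10 counts in every sample, for Dox in VCaP-shERG cells (orange) and PBITE-1 at 4, 8 and 12 h (light to dark blue); dashed lines mark an absolute value of 1. EGR1 is at 4.13 at 4 h, NR4A1, NR4A2 and IER2 lie above 1 at each time, and no Dox value passes either line.

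With Dox in VCaP-shERG cells, no gene of the panel passed the full rule. Of the 6 genes with a value, 0 were called in either direction, beside 12% of tested genes called higher and 7.19% called lower. A count of 0 of 6 cannot be told from that background. The count was also 0 with edgeR and with DESeq2, and at an unadjusted p of 0.05 limma-voom gave 1 gene higher (EGR1) and 2 lower (IER2 and SRF). At the adjusted p alone, IER2 and SRF were lower, which 35.3% of all tested genes were. EGR3 had at most 2 counts in each of these 6 samples and IER3 and EGR2 at most 1, so no fold is given for them.

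IER2 had 18.9, 15.6 and 16.3 CPM in shERG DMSO and 10.3, 11.6 and 9.30 CPM in shERG Dox, without overlap, a gap below the vehicle samples that 36.4% of tested genes showed. It fell by 0.69 on the log2 scale (SE 0.12, adjusted p = 1.04e-05), against its rise under PBITE-1. SRF had 35.5, 38.6 and 38.0 CPM in shERG DMSO and 28.4, 27.8 and 30.4 CPM in shERG Dox, also without overlap. Its log2 fold change was -0.38 (SE 0.07, adjusted p = 5.1e-05).

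EGR1 had 2.08, 2.57 and 2.55 CPM in shERG DMSO and 4.43, 3.03 and 3.10 CPM in shERG Dox. The Dox samples were all above the vehicle samples, as in 36.2% of tested genes, by 0.53 on the log2 scale (SE 0.25, adjusted p = 0.0574), which missed the threshold. The value passed it in 6 of 16 other settings, edgeR's quasi-likelihood test among them (0.55, adjusted p = 0.0383). NR4A1 measured 26.4 ± 1.41 and 23.9 ± 1.20 CPM (SD, n = 3), a log2 difference of -0.13 (SE 0.08, adjusted p = 0.143). NR4A2 measured 2.37 and 1.99 CPM, a log2 difference of -0.28 (adjusted p = 0.394). NR4A3 had 1, 3 and 0 counts in shERG DMSO and 2, 5 and 2 in shERG Dox, both near the floor.

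These Dox values depend on how libraries are scaled. TMM factors over the 18 samples were 1.17 in each Dox sample and 0.948 to 0.991 in the others. Scaling by library size alone moved the median log2 fold change of all genes for Dox from 0.02 to 0.28, and on that scale SRF was at -0.11 (adjusted p = 0.158), IER2 at -0.43 (adjusted p = 0.00194), EGR1 at 0.79 (adjusted p = 0.00549), and NR4A1 turned to 0.13 (adjusted p = 0.16).

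The response to PBITE-1 at 12 h was compared with that to Dox as a difference of log2 fold changes in 1 fit of all 18 samples. Of the 6 genes with a value in both, 5 were called higher under PBITE-1, beside 13% of all tested genes. NR4A3 is among these 5 but passed the filter only because of the PBITE-1 samples, so that a difference was built into its selection. The difference was 3.26 (SE 0.32, adjusted p = 1.94e-12) for EGR1, 2.41 (SE 0.38, adjusted p = 2.67e-07) for NR4A2, 2.13 (SE 0.16, adjusted p = 1.05e-15) for IER2 and 1.47 (SE 0.11, adjusted p = 5.45e-16) for NR4A1. For NR4A3 it was 3.30 (SE 1.13, adjusted p = 0.00911), with every shERG DMSO library at or under the floor, and the call was lost with edgeR's quasi-likelihood test (adjusted p = 0.0671), without shERG DMSO replicate 2 (2.67, adjusted p = 0.0703) and without DMSO replicate 3 (2.04, adjusted p = 0.0754). SRF differed by 0.58 (SE 0.10, adjusted p = 3.56e-06), past the adjusted p alone, as did 33.3% of tested genes in that direction. The agent, the cell line and the unstated duration of Dox cannot be told apart in this comparison.

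The vehicle groups of the 2 cell lines were themselves not alike. With all 18 samples scaled together, shERG DMSO was lower than DMSO in NR4A1 by a log2 difference of -0.39 (SE 0.08, adjusted p = 8.28e-05), and higher in IER2 by 0.29 (SE 0.12, adjusted p = 0.0338) and in SRF by 0.24 (SE 0.07, adjusted p = 0.0047). For EGR1 the difference was -0.26 (SE 0.26, adjusted p = 0.431). Over all tested genes, 46.6% differed between the vehicle groups at the adjusted p alone.

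Among the 6 groups, those with PBITE-1 ranked above those without it in all 8 tested genes except SRF. EGR1 ran from 47.5 CPM at 4 h through 38.0 at 12 h and 34.9 at 8 h to 3.30 in shERG Dox, 2.75 in DMSO and 2.25 in shERG DMSO (CPM scaled over 18 samples). Its neighbours differed between 4 and 12 h (0.32, adjusted p = 8.41e-05) and between 8 h and shERG Dox (3.41, adjusted p = 4.23e-22), and no other pair of neighbours differed beyond the spread. In NR4A1 the 3 treated groups were not separated from their neighbours, and the steps from 4 h to DMSO (1.22, adjusted p = 2.09e-20) and from DMSO to shERG DMSO exceeded the spread. In NR4A2 the step that did was from 8 h to shERG DMSO (1.54, adjusted p = 9.24e-08). In IER2 the treated groups did not separate, but 8 h was above shERG DMSO (1.00, adjusted p = 1.59e-12), shERG DMSO above DMSO, and DMSO above shERG Dox (0.40, adjusted p = 0.00665). In SRF the 8 h group was above shERG DMSO (0.44, adjusted p = 1.09e-07), and the 5 groups below it, from shERG DMSO through 12 h, 4 h and DMSO to shERG Dox, did not differ from their neighbours. In EGR3, NR4A3 and IER3 the step between PBITE-1 and the other groups was the one that exceeded the spread. These genes passed the filter only because of the PBITE-1 samples, so that a step was built into their selection.

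Levels were compared between genes only after division by exon length (CPM per kb of merged exons, scaled over 18 samples). This length joins the exons of all annotated transcripts, 7295 bases for NR4A1 and 4202 for SRF. The ranking and the shares below hold for this length only. The 10 genes summed to 17.1 ± 0.797 CPM per kb in DMSO, 18.2 ± 0.299 in shERG DMSO, 14.3 ± 0.346 in shERG Dox, and 47.5 ± 3.73, 47.5 ± 1.59 and 46.7 ± 0.797 at 4, 8 and 12 h of PBITE-1 (SD, n = 3). SRF led in DMSO with 41.2% of the sum, followed by NR4A1 with 25.8% and IER2 with 24.4%, and EGR1 made up 5.10 ± 0.494%. At 4 h EGR1 made up 31.9 ± 1.49% and SRF 16.8%. EGR1 then held 23.4 ± 0.975% at 8 h and 25.9 ± 2.18% at 12 h, where NR4A1 held 23.9% and IER2 24.4%. The summed level was thus nearly the same at the 3 times while the share of EGR1 was highest at 4 h.

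**Figure D4:**
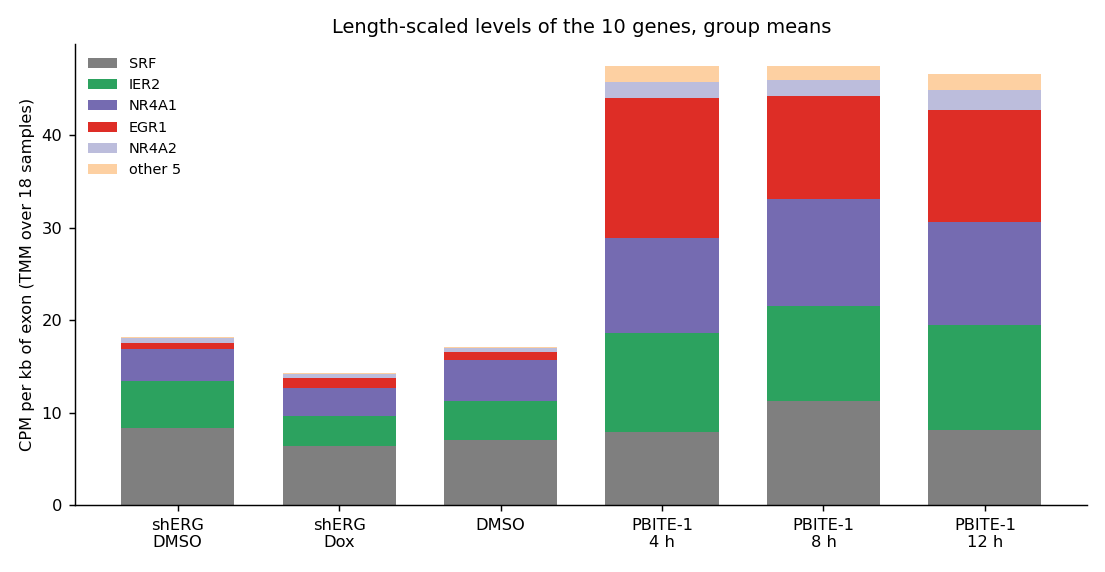
Group means of the length-scaled level (CPM per kb of exon, scaled by TMM over 18 samples) of SRF, IER2, NR4A1, EGR1, NR4A2 and the other 5 genes together, stacked for the 6 groups. The sum is 14.3 to 18.2 CPM per kb in the groups without PBITE-1 and 46.7 to 47.5 with it, and the EGR1 segment grows from 5.10% in DMSO to 31.9% at 4 h.

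Across the 18 samples the log2 levels of the tested genes other than SRF were correlated with each other, with Pearson's r of 0.862 to 0.977 between pairs, and with SRF at 0.536 to 0.654. These values describe 6 groups of 3 libraries that share the step between samples with and without PBITE-1, and carry no test. Among 11306 genes with a mean of at least 50 counts, the closest to EGR1 were TNFAIP3 (r = 0.992, Spearman's rho = 0.886), IRS2 (r = 0.990) and ZNF10 (r = 0.990), and the closest to NR4A1 were PIM1 (r = 0.994), NFIL3 (r = 0.993) and H1-2 (r = 0.991). The closest to IER2 were BCL2L11, MT1E and MT2A (r = 0.974 to 0.975), of which the metallothioneins are near copies with uncertain read assignment. The closest to IER3 were GADD45B, IRF1 and OSER1 (r = 0.977 to 0.978). SRF had no match as close, its nearest being COL4A3 (r = 0.909), ZNF584 (r = 0.898) and INIP (r = 0.897).

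Other immediate early genes were looked at as a list of 28, all of which were tested. This list too was chosen with earlier results of these data known. At 4 h 18 were called higher and 2 lower, with a median log2 fold change of 1.72 against -0.01 over all tested genes, of which 7.28% were called higher and 2.99% lower. At 8 h 18 were called higher and 1 lower (median 1.74, all genes -0.02, 14.9% called higher and 8.86% lower), and at 12 h 19 higher and 0 lower (median 1.43, all genes -0.01, 17.1% called higher and 15.4% lower). At 12 h edgeR and DESeq2 also called 0 lower, and 3 of the 28 were lower at an unadjusted p of 0.05. ARC, known from neurons as an activity-regulated gene, was at 0.673 ± 0.0572 CPM in DMSO and at 21.3 ± 3.20, 16.1 ± 2.18 and 13.8 ± 1.70 CPM at 4, 8 and 12 h, a log2 fold change of 4.91 (SE 0.35) at 4 h. GADD45B, a stress and growth arrest gene, rose by 4.14 (SE 0.22) at 4 h, IER5, a relative of IER2, by 3.81 (SE 0.17), and PHLDA1 by 3.78 (SE 0.16). TRIB1, which encodes a pseudokinase, fell by 1.46 (SE 0.05) at 4 h and by 1.70 at 8 h, and ZFP36L1, an mRNA decay factor, fell by 1.06 (SE 0.21) at 4 h.

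With Dox, 1 of the 28 was called higher and 6 were called lower, beside 12% and 7.19% of all tested genes (median -0.15, all genes 0.02). MAFF, a small MAF factor, rose by 1.31, and HES1, a NOTCH target and repressor, fell by 2.05 (SE 0.21, adjusted p = 2.51e-09). BTG1, ID3, PLK3, ZFP36L1 and ZFP36L2 were the other 5 that fell, by 1.01 to 1.38. BTG1 and ID3, both at -1.01, were just past the threshold. Scaling by library size alone moved the median of all genes for Dox to 0.28. The calls of this list on that scale are not given here.

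**Figure D5:**
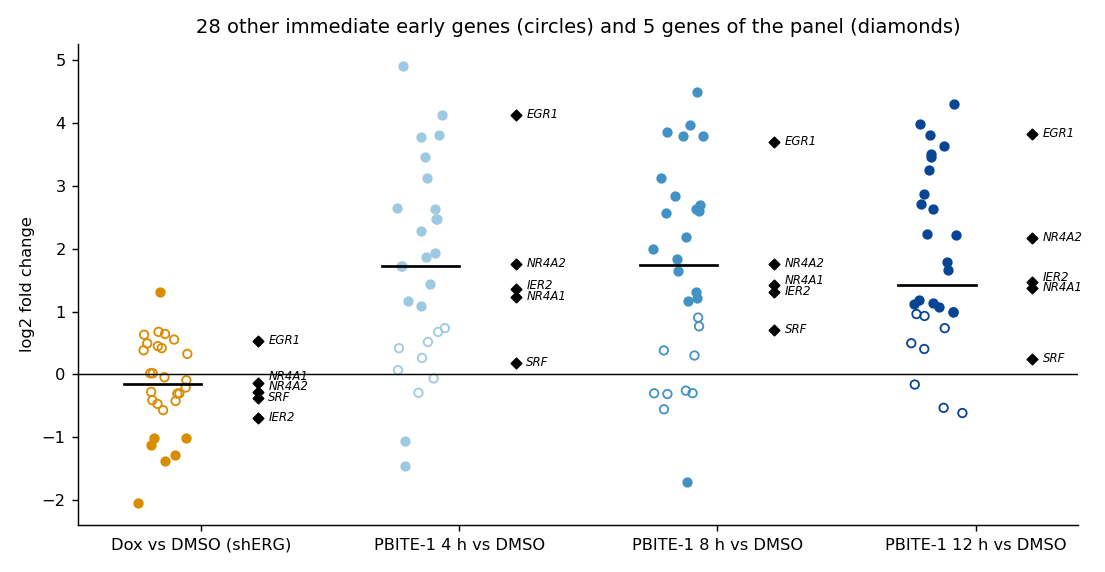
Log2 fold change (y axis) of 28 other immediate early genes (circles, filled where called by the rule on adjusted p and fold; line, median) and of 5 genes of the panel (diamonds), for Dox and for PBITE-1 at 4, 8 and 12 h. The median is -0.15 with Dox and 1.72, 1.74 and 1.43 at the 3 times, and EGR1 lies near the top of the circles at 4 h.

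The partners through which SRF acts formed a short list. Of 6 listed, MYOCD stayed under the filter and never exceeded 5 counts, and 0 of the other 5 were called with Dox or at 4 h by limma-voom, edgeR or DESeq2, while 3 and 4 of them passed an unadjusted p of 0.05. At 8 and 12 h 0 were called higher by any of the 3 tools and 1 was called lower, beside 14.9% and 17.1% of all tested genes called higher and 8.86% and 15.4% lower, and 5 and 4 passed an unadjusted p of 0.05. Counts this small cannot be told from the background. ELK3, an ETS partner of SRF, was called lower at 8 h (-1.94, SE 0.20, adjusted p = 6.76e-11) and at 12 h (-2.26, SE 0.22, adjusted p = 9e-12), from 9.61 ± 0.987 CPM in DMSO to 1.96 ± 0.293 CPM at 12 h. MRTFA, the actin-regulated partner, was at 1.00, just short of the threshold, at 8 h.

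Cytoskeletal genes known as SRF targets were the next list. Of 21 listed 19 were tested, and 0 were called higher and 1 lower at 4 h, 3 higher and 1 lower at 8 h and at 12 h, and 2 higher and 0 lower with Dox, with medians between -0.14 and 0.19. The shares over all tested genes were 7.28% higher and 2.99% lower at 4 h, 14.9% and 8.86% at 8 h, 17.1% and 15.4% at 12 h, and 12% and 7.19% with Dox, so the counts of the list were near or under the background. ACTA2, smooth muscle actin, rose by 1.67 (SE 0.29) at 8 h and 1.93 (SE 0.28) at 12 h. VCL, the adhesion protein vinculin, rose by 1.28 (SE 0.05) and 1.31 (SE 0.05). TAGLN, an actin-binding protein, was called higher at 8 h (1.61, SE 0.20) and with Dox (1.01, SE 0.24), and MYL9, a myosin light chain, was called higher with Dox (3.13, SE 0.38). FLNA was called higher at 12 h (1.11, SE 0.05). TPM2, a tropomyosin, fell by 2.58 (SE 0.53) at 4 h, and its log2 fold change was -1.30 at 8 h and -1.59 at 12 h. It had at most 28 counts in a DMSO library and at most 4 in a 4 h library, close to the floor of 3. Stromal cells also express ACTA2, TAGLN and MYL9, and the stromal marker sum moved in the same groups; its part was not tested.

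Cofactors of the EGR and NR4A proteins were the smallest list. Of 5, all tested, 0 were called at any time of PBITE-1 by limma-voom, edgeR or DESeq2, and 1, 3 and 4 passed an unadjusted p of 0.05 at 4, 8 and 12 h. With 7.28% to 17.1% of all tested genes called higher, 0 of 5 is near the background. NAB2, a corepressor that binds EGR proteins, was at 7.97 ± 0.867 CPM in DMSO and 12.9 ± 0.923, 15.3 ± 0.849 and 9.95 ± 1.55 CPM at 4, 8 and 12 h (SD, n = 3). Its log2 fold changes were 0.70 (SE 0.13, adjusted p = 2.15e-05), 0.94 (SE 0.12, adjusted p = 1.44e-08) and 0.32 (SE 0.14, adjusted p = 0.029). RXRG, a retinoid receptor of the family with which NR4A1 and NR4A2 can pair, was called higher with Dox, with at most 3 counts in each vehicle library and at most 44 in a Dox library.

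Upstream kinases and CREB factors formed a list of 20, all tested. With Dox 0 were called by limma-voom, edgeR or DESeq2 (16 passed an unadjusted p of 0.05), at 4 h 1 was called higher, at 8 h 6 higher and 1 lower, and at 12 h 3 higher and 2 lower. Over all tested genes 12% were called higher and 7.19% lower with Dox, and 7.28% were called higher at 4 h. The shares were 14.9% higher and 8.86% lower at 8 h, and 17.1% higher and 15.4% lower at 12 h. The counts at 12 h were near the background in both directions. At 8 h the 6 called higher were more than the share over all tested genes. Whether that exceeds the background was not tested. The count at the unadjusted p has no share over all genes beside it. RPS6KA2, an RSK kinase downstream of ERK, was at 7.70 ± 0.408 CPM in DMSO, 15.9 ± 1.16 CPM at 4 h, 56.9 ± 2.07 CPM at 8 h and 80.8 ± 2.90 CPM at 12 h. CREB1 rose by 1.14 (SE 0.06) at 8 h and CREM by 1.41 (SE 0.12), and both values were smaller at 12 h (0.55 and 0.89). RPS6KA5, the kinase MSK1, rose by 1.53 (SE 0.08) at 8 h and 1.20 (SE 0.08) at 12 h, and RPS6KA4, the related MSK2, fell by 1.32 and 1.83.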

How the data were processed

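RNA was measured as total RNA after ribosomal depletion, by paired-end sequencing, in 18 VCaP samples. The authors deposited whole-number counts per gene without normalization. Their methods name Kallisto for quantification, whereas the submitters' processing notes name STAR, featureCounts and hg38, and the annotation and the use of strand are not given in the sources used here. The paper calls the samples biological replicates. The 10 genes and the gene lists were chosen with earlier results of these data known.

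Of 22034 identifiers, 22011 matched a symbol. Positions and exon lengths came from GENCODE release 29 (GRCh38), and promoter sequences from RefSeq (GRCh38.p14). The filter filterByExpr in edgeR, applied with the 6 groups, retained 14164 genes (64.3%). Counts were scaled by TMM and tested by limma-voom, as in the authors' methods, separately in the 6 VCaP-shERG and the 12 parental samples, and in 1 fit of all 18 for the response difference and the order of groups. P-values were adjusted by the Benjamini-Hochberg method over all tested genes. Shares over all tested genes are not given at an unadjusted p, so counts by that rule have no background. CPM are TMM-scaled within each experiment unless stated. Correlations used log2 CPM with a prior count of 2. R 4.3.3, edgeR 4.0.16, limma 3.58.1 and DESeq2 1.42.0 were used. The models were checked on simulated counts, where 200 of 200 genes changed by a log2 value of 2 were recovered in each of the Dox, 4 h, 8 h and 12 h comparisons. The changed genes were drawn only from genes better covered in the control. The check thus does not reach levels as low as those of EGR1, EGR3, NR4A2, NR4A3 and IER3 in DMSO. The text names the 10 genes, ERG, the called gene of each list with the most positive and the most negative change in each comparison with a control, and the 3 genes most correlated with EGR1, NR4A1, IER2, IER3 and SRF. MYOCD, MRTFA, VCL, TAGLN, FLNA, NAB2, CREB1, CREM, RPS6KA5, GADD45B, IER5, PHLDA1, ZFP36L1, ZFP36L2, BTG1, ID3 and PLK3 were chosen after their values were seen. Alternatives tried were DESeq2, the quasi-likelihood test of edgeR, other scalings and filters, sample weights, a replicate block, and leaving out each sample. Low counts limit EGR2, EGR3, EGR4, NR4A3 and IER3.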

Additional observations from a re-analysis of the deposited data

Results flagged for a closer look

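Values of 4 genes differed between times of PBITE-1 and those of 6 genes between PBITE-1 and Dox, by tests of the differences themselves in limma-voom with Benjamini-Hochberg adjustment. EGR1 at 8 h was below 4 h by a log2 difference of -0.43 (adjusted p = 5.96e-06), while NR4A1 was above it by 0.18 (adjusted p = 0.00879, lost when 4 h replicate 2 or 8 h replicate 1 was left out) and SRF by 0.52 (adjusted p = 9.33e-08). At 12 h NR4A2 was above 8 h by 0.41 (adjusted p = 0.0212, but 0.0533 with DESeq2, 0.205 without 8 h replicate 1 and 0.0634 without 12 h replicate 3), and SRF was below it by a log2 difference of -0.46 (adjusted p = 3.93e-07).

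The log2 response to PBITE-1 at 12 h exceeded that to Dox by 3.26 for EGR1 (adjusted p = 1.94e-12), 1.47 for NR4A1 (adjusted p = 5.45e-16), 2.41 for NR4A2 (adjusted p = 2.67e-07), 3.30 for NR4A3 (adjusted p = 0.00911, lost in 3 of 20 settings), 2.13 for IER2 (adjusted p = 1.05e-15) and 0.58 for SRF (adjusted p = 3.56e-06). IER2 fell with Dox and rose with PBITE-1, and SRF fell with Dox and passed the test in the higher direction at 12 h. Agent, cell line and duration of Dox cannot be told apart in these differences, and NR4A3 passed the filter only because of the PBITE-1 samples. None of the differences between times passed the fold threshold, and over all tested genes 26.7% were higher and 26.3% lower from 4 to 8 h, and 27.8% and 32.5% from 8 to 12 h, at the adjusted p alone.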

How the results depend on the processing

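Of 885 recomputed values of the 10 genes (52 results under up to 21 settings), 871 kept their direction and their side of the threshold, 3 lost the call (the NR4A3 response difference, given above) and 11 changed sign, none of them a called value. The cause of the changes was not tested. For Dox, NR4A1 (main -0.13) turned to 0.027 with upper-quartile scaling and 0.13 with library size alone. From 4 to 8 h, NR4A2 (main -0.00) was 0.010 with at least 10 counts in every sample, 0.00201 with the replicate block and 0.053 with sample weights, and -0.15 to 0.17 over the fits that left out 1 sample. Over the same fits IER2 from 4 to 8 h ranged from -0.13 to 0.025 and IER3 from -0.75 to 0.12, and from 8 to 12 h NR4A1 ranged from -0.089 to 0.0055 and IER3 from -0.28 to 0.082.

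With at least 10 counts in every sample, which tests fewer genes, the panel had 4 genes called at 4, 8 and 12 h (7 otherwise). Over all genes, 915 were then called higher with Dox (1699 otherwise), 554 higher and 213 lower at 4 h (1031 and 424), 1354 and 788 at 8 h (2105 and 1255), 268 and 149 from 4 to 8 h (628 and 315), and 276 and 530 from 8 to 12 h (493 and 933). With library size alone, 2430 genes were called higher and 506 lower with Dox (1699 and 1019). Leaving out any 1 sample kept 7 genes of the panel called at 4, 8 and 12 h and 0 with Dox, and the response difference had 4 to 5. At the adjusted p alone, NR4A2 from 8 to 12 h also missed the threshold with DESeq2 (0.41, adjusted p = 0.0533), IER2 from 8 to 12 h passed it without 12 h replicate 3 (0.25, adjusted p = 0.0169), and EGR1 did without 12 h replicate 1 (0.19, adjusted p = 0.0341).

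Replicate numbers are shared by the groups but did not pair the samples: over 21 pairs of same-numbered samples within the experiments, deviations from the group means correlated at -0.0232 to 0.0414. With the replicate block, 7 genes of the panel were called at 4, 8 and 12 h and 0 with Dox, as without it, and over all genes 1658 were higher and 1011 lower with Dox. IER2 from 8 to 12 h passed the adjusted p with the block (0.18, adjusted p = 0.0371).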
